A study of Mus musculus with 6 samples.

Results

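A set of 10 genes for protein-degrading enzymes of the lysosome and their partners was followed in CT26.WT tumors of mice given IFN-γ. The members are the 8 cathepsin genes Ctss, Ctsl, Ctsb, Ctsd, Ctsh, Ctsk, Ctsc and Ctsz, the legumain gene Lgmn and the thiol reductase gene Ifi30. They were chosen by symbol, and they make up 10 of the 55487 genes in the count table. RNA sequencing had been performed on 6 subcutaneous tumors, with 3 controls and 3 of the IFN-γ-stimulated group. The line CT26.WT derives from a colon carcinoma of BALB/c mice, and all 6 tumors were labelled as wild type and were grown from it. Per the study's methods, the hosts were young male immunocompetent BALB/c mice, the IFN-γ group received the cytokine repeatedly through the tail vein, and the control group received PBS by the same route. The labels do not say whether each tumor came from a separate mouse, so the p-values below measure the spread between these tumors. A tumor of this kind holds the implanted cells of a single line together with whatever macrophages, T cells, fibroblasts and vessels the host supplied.

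The lysosome is the acidic compartment in which cells break down proteins taken up from outside or delivered from inside. Most cathepsins are cysteine proteases related to papain, cathepsin D is an aspartic protease, and legumain cuts after asparagine. In antigen-presenting cells the same enzymes cut the antigens that are loaded on MHC class II and remove the invariant chain from the class II groove, a step in which cathepsin S is best known in macrophages, dendritic cells and B cells and cathepsin L in the thymic epithelium. Ifi30 encodes GILT, an IFN-γ-inducible enzyme that reduces the disulfide bonds of antigens in this compartment. The comparison asks which of these transcripts differed when the host was given IFN-γ.

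All 10 members passed the filter on low counts and were tested among 15114 genes. The libraries held 15759300 to 17559680 counts on genes, and every member had at least 133 counts in every tumor. A count of 0 would have allowed up to 0.169 to 0.188 CPM, which is 3 counts per tumor and covers counting error only. Levels are given as CPM, counts relative to the effective library size after TMM scaling. The label colon carcinoma was met by low levels of epithelial markers. The 7 genes of that list (Krt8, Krt18, Krt19, Epcam, Cdh1, Cdx2 and Vil1) summed to between 9.64 and 23.3 CPM per tumor, and Cdx2 had 0 counts in all 6 tumors. IFN-γ tumor 3 stood apart from the other tumors of its group. The tests of the members are thus given with all 6 tumors and again without this tumor. It was singled out by these same data, and leaving it out narrows the spread within the group, so adjusted p-values without it are descriptive only. Among all genes, edgeR's quasi-likelihood test called 12 higher and 5 lower under IFN-γ with 6 tumors, and 381 higher and 112 lower without IFN-γ tumor 3.

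The promoters shown here belong to the members with the most different patterns, the neighbours Ctss and Ctsk, Ctsc, which differed between the IFN-γ tumors, and Ctsd, which varied least over the 6 tumors. Each run gives the 250 bases before the RefSeq start of the gene in GRCm38.p6, read 5′ to 3′ on the strand of the gene. Capitals mark letters that match one of 4 motifs searched on both strands. These were the interferon-γ activation site GAS (TTCNNNGAA), the core of the interferon-stimulated response element ISRE (GAAANNGAAA), the E-box read by the lysosomal regulators of the MiT/TFE family (CACGTG) and a core of the myeloid factor PU.1 (GAGGAAGT). None of these motifs overlap in the 4 runs.
Ctss promoter at chr3:95526536-95526785, plus strand: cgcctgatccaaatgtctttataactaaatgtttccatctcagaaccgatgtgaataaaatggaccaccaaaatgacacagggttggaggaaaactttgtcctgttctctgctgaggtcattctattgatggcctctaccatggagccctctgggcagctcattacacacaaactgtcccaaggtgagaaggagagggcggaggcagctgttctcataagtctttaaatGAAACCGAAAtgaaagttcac
Ctsk promoter at chr3:95498960-95499209, plus strand: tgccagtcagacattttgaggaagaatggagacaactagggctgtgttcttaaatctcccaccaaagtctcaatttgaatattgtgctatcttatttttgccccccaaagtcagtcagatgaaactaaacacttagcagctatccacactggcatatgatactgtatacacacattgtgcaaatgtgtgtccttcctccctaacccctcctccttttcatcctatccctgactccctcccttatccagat
Ctsc promoter at chr7:88277835-88278084, plus strand: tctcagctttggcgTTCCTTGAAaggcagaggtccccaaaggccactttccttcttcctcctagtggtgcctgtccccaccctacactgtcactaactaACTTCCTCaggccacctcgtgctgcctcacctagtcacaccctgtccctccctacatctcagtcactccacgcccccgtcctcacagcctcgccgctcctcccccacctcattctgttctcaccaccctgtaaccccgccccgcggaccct
Ctsd promoter at chr7:142387828-142388077, minus strand: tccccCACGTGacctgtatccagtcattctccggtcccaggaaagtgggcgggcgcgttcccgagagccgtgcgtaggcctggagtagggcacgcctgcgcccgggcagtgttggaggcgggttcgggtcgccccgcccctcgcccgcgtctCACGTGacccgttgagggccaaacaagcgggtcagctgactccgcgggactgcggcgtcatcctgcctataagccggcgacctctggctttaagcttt
The Ctss window holds the ISRE core from -21 to -12, counted from the base before the start. A match to it is found in 2.98% of the 32851 promoter windows of the same length. The Ctsk window holds none of the 4 motifs. The Ctsc window holds a GAS match from -236 to -228, a motif of 7.02% of windows, and a PU.1 core on the other strand from -151 to -144, a motif of 2.44% of windows. The Ctsd window holds the E-box at -245 to -240 and again at -98 to -93. The E-box stands in 6.02% of all windows and in 4 of the 9 windows of members, those of Ctsd, Ifi30, Lgmn and Ctsl. The RefSeq table held windows for 8 of the 10 members, with 2 for Lgmn, and Ctsb and Ctsh were not among them. These matches describe letters only.

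Ctss and Ctsk lie next to each other. In GRCm38 with GENCODE M21, Ctsk spans chr3:95499256-95509362 and Ctss spans chr3:95526786-95556403, both on the plus strand, with 17423 bases and 0 annotated genes between them. The other members lie apart, with Ctsc at chr7:88278085-88310888 (plus strand) and Ctsd at chr7:142375911-142388038 (minus strand) on the same chromosome. Ctsl lies at chr13:64359337-64370890 (minus strand), Ctsb at chr14:63122462-63145923 (plus strand), Ctsh at chr9:90054152-90076089 (plus strand) and Ctsz at chr2:174427493-174439039 (minus strand). Lgmn lies at chr12:102394084-102439813 (minus strand) and Ifi30 at chr8:70762774-70766663 (minus strand). GENCODE M21 lists Ifi30 as a processed transcript with 0 protein-coding transcripts, and the other 9 members as protein-coding.

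The 3 members Ctss, Ctsh and Lgmn had higher CPM in every IFN-γ tumor than in any control tumor, as did 7.62% of all genes tested. In all, 7 members, these 3 with Ctsc, Ifi30, Ctsb and Ctsz, were higher in IFN-γ tumors 1 and 2 than in every control, against 18.1% of all genes tested. In IFN-γ tumor 3, 4 members were above every control and 5 lay within the controls, against 29.5% and 40.9% of genes. With all 6 tumors, edgeR called 0 of the 10 members higher, against a background of 0.0794% of the genes tested, and 0 lower, against 0.0331%. At an unadjusted p under 0.05 the same fit held 3 members and 1539 genes, which is 10.2% of those tested, and DESeq2 called 3 members higher in the same 6 tumors, Ctss, Ctsh and Lgmn, against 0.936% of genes, and 0 lower, against 0.532%. Without a filter on low counts, edgeR called the same 3 higher, against 0.558% of the genes then tested, and 0 lower, against 0.261%. Without IFN-γ tumor 3, edgeR called 5 members higher, Ctss, Ctsh, Ctsc, Lgmn and Ifi30, against 2.46% of genes, and 0 lower, against 0.723%. In the same 5 tumors DESeq2, added after seeing the data, called 6 higher (4.66% of genes), which were these 5 with Ctsb, and 1 lower, Ctsl (1.86% of genes), and limma-voom, added likewise, called the 5 higher (2.72%) and 0 lower (0.691%). The log2 fold change was positive for 8 members in both fits. Its median over the members was 0.30 with all 6 tumors and 0.39 without IFN-γ tumor 3, beside 0.0015 and -0.016 over all genes tested. Of the 8 macrophage markers, 7 had a positive log2 fold change in both fits and Mrc1 did not, and together they summed to 2040 to 2248 CPM in the controls and to 2902, 3184 and 2166 CPM in IFN-γ tumors 1, 2 and 3. More cells of a type and more RNA per cell cannot be told apart in bulk tumors, and the part of macrophages in the levels of the members was not tested.

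**Figure D1:**
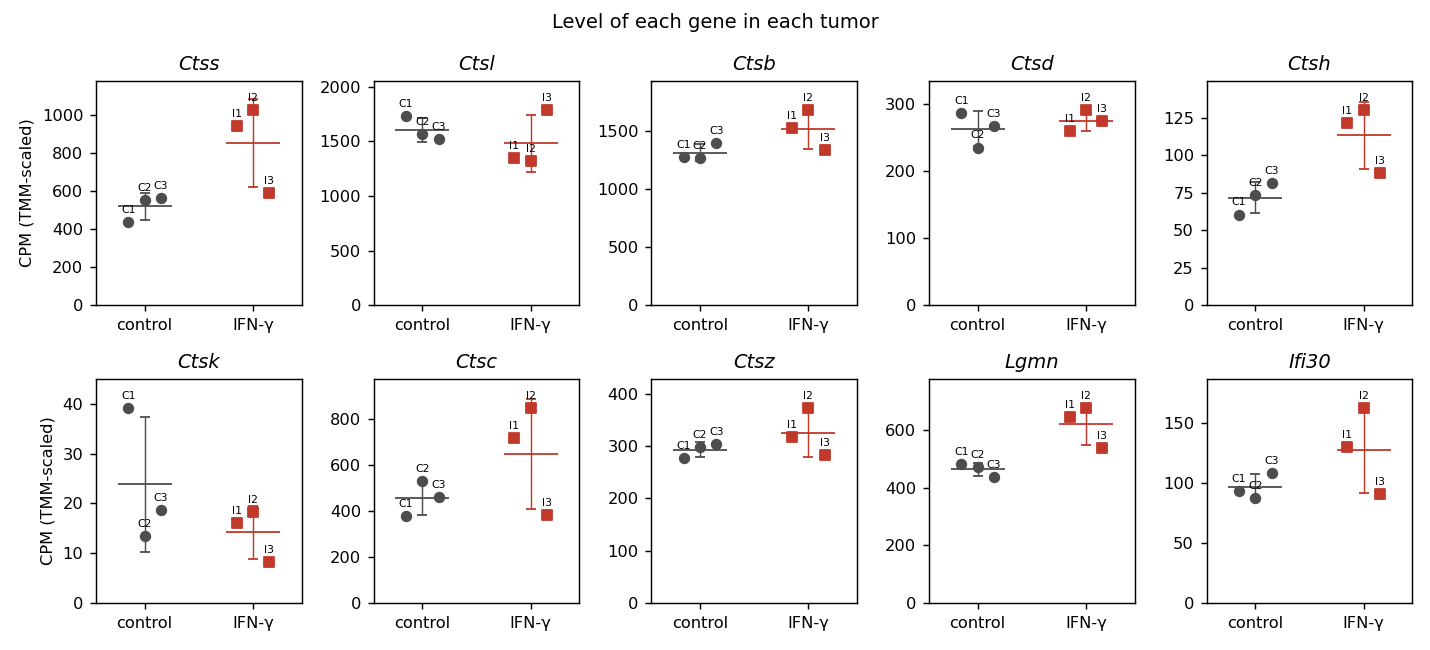
Level of each of the 10 genes in CPM (vertical axes, each from 0) in the 3 control tumors (grey circles, C1 to C3) and the 3 IFN-γ tumors (red squares, I1 to I3), with the mean as a line and the SD (n = 3) as a bar. In Ctss, Ctsh and Lgmn the groups do not overlap, with the IFN-γ group higher, as in 7.62% of all genes tested. In Ctsc, Ifi30, Ctsb and Ctsz IFN-γ tumor 3 lies among the controls.

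Ctss encodes cathepsin S, the endopeptidase that trims the invariant chain in antigen-presenting cells. Its CPM was 437, 554 and 566 in control tumors 1, 2 and 3 and 943, 1026 and 592 in IFN-γ tumors 1, 2 and 3. All 3 IFN-γ tumors were above the highest control, the third by a small margin. The group means were 519 ± 71.2 and 854 ± 230 CPM (SD, n = 3). The log2 fold change was 0.72 ± 0.20 (SE) with all 6 tumors (edgeR, adjusted p = 0.299) and 0.91 ± 0.12 without IFN-γ tumor 3 (adjusted p = 0.011). DESeq2 gave an adjusted p of 0.0117 with all 6 tumors. Ctss was the member with the most positive fold change in both edgeR fits.

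Ctsh encodes cathepsin H, an aminopeptidase that removes residues from the amino end of peptides. Its CPM was 60.5, 73.7 and 81.1 in the controls, against 122, 130 and 88.1 in the IFN-γ tumors. The groups did not overlap, and IFN-γ tumor 3 was the lowest of its group as in Ctss. Cathepsin H had a log2 fold change of 0.66 ± 0.16 with all 6 tumors (edgeR, adjusted p = 0.256) and 0.80 ± 0.12 without IFN-γ tumor 3 (adjusted p = 0.0152). DESeq2 gave an adjusted p of 0.00936 with all 6 tumors. The group means were 71.8 ± 10.5 and 113 ± 22.2 CPM (SD, n = 3), so the difference of the means exceeded the SD of either group.

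Lgmn encodes legumain, the asparaginyl endopeptidase that also matures several cathepsins from their proenzymes. Its CPM was 482, 472 and 439 in the controls, against 644, 678 and 539 in the IFN-γ tumors. The controls were tight around 464 ± 22.6 CPM (SD, n = 3), and even the lowest IFN-γ tumor exceeded the highest control. Legumain thus had a log2 fold change of 0.42 ± 0.10 with all 6 tumors (edgeR, adjusted p = 0.248) and 0.50 ± 0.08 without IFN-γ tumor 3 (adjusted p = 0.0185). Lgmn was the member whose IFN-γ tumors differed least from each other, relative to their mean, among the 3 without overlap. For these 3 members the background is that 7.62% of all genes tested had IFN-γ tumors above every control, and 7.5% had them below.

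Ctsc encodes cathepsin C, the dipeptidyl peptidase that activates granzymes and the serine proteases of neutrophils. Its CPM was 380, 533 and 460 in the controls, against 717, 849 and 385 in the IFN-γ tumors. IFN-γ tumors 1 and 2 were above every control, whereas IFN-γ tumor 3 was close to the lowest control. For Ctsc the log2 fold change was 0.51 ± 0.26 with all 6 tumors (edgeR, adjusted p = 0.555) and 0.77 ± 0.14 without IFN-γ tumor 3 (adjusted p = 0.0255). When IFN-γ tumor 2 was left out instead, the value was 0.26. The IFN-γ tumors spread by an SD of 239 CPM around a mean of 650.3, and the controls by 76.1 around 458.

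Ifi30, the gene of GILT, had a CPM of 93.3, 87.6 and 108 in the controls, against 130, 162 and 90.6 in the IFN-γ tumors. IFN-γ tumors 1 and 2 exceeded every control, and IFN-γ tumor 3 lay between controls 2 and 1. For Ifi30 the log2 fold change was 0.41 ± 0.19 with all 6 tumors (edgeR, adjusted p = 0.515) and 0.59 ± 0.12 without IFN-γ tumor 3 (adjusted p = 0.0359). Ifi30 thus had a smaller fold change than Ctss in both fits, and the difference between these members was not tested.

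Ctsb encodes cathepsin B, which cuts within proteins and also removes dipeptides from the carboxyl end. Its CPM was 1278, 1271 and 1396 in the controls, against 1526, 1680 and 1338 in the IFN-γ tumors. Cathepsin B had a log2 fold change of 0.20 ± 0.10 (edgeR, adjusted p = 0.531), and 0.28 ± 0.08 without IFN-γ tumor 3 (adjusted p = 0.126). Ctsz, the gene of the carboxypeptidase cathepsin Z, also called cathepsin X, had a CPM of 276, 298 and 304 in the controls, against 317, 373 and 283 in the IFN-γ tumors. In both genes IFN-γ tumor 3 lay within the controls. The log2 fold change of Ctsz was 0.15 ± 0.11 (adjusted p = 0.702), and 0.23 ± 0.09 without IFN-γ tumor 3 (adjusted p = 0.261).

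Like Ctsb and Ctsz, the genes Ctsd, Ctsl and Ctsk passed neither of these edgeR fits, and IFN-γ tumors 1 and 2 were not both above their controls. Ctsd encodes cathepsin D, the aspartic protease found in the lysosomes of nearly all cells. Its CPM was 286, 235 and 267 in the controls, against 259, 290 and 274 in the IFN-γ tumors, and the ranges overlapped. The log2 fold change was 0.06 ± 0.09 (edgeR, adjusted p = 0.865), 0.06 ± 0.10 without IFN-γ tumor 3 (adjusted p = 0.846), and -0.011 without control tumor 2.

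Ctsl encodes cathepsin L, a broadly expressed endopeptidase. Its CPM was 1731, 1563 and 1522 in the controls, against 1345, 1320 and 1784 in the IFN-γ tumors. IFN-γ tumors 1 and 2 were below every control and IFN-γ tumor 3 was above every control, so that this tumor was the highest of its group here and the lowest of its group in Ctss, Ctsc and Ifi30. Ctsl was the only member of the 10 with IFN-γ tumors 1 and 2 below every control, against 15.8% of all genes tested. Over the groups, Ctsl had a log2 fold change of -0.11 ± 0.13 (edgeR, adjusted p = 0.816), and -0.28 ± 0.08 without IFN-γ tumor 3 (adjusted p = 0.134). DESeq2 without that tumor, added after seeing the data, gave an adjusted p of 0.0246.

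**Figure D2:**
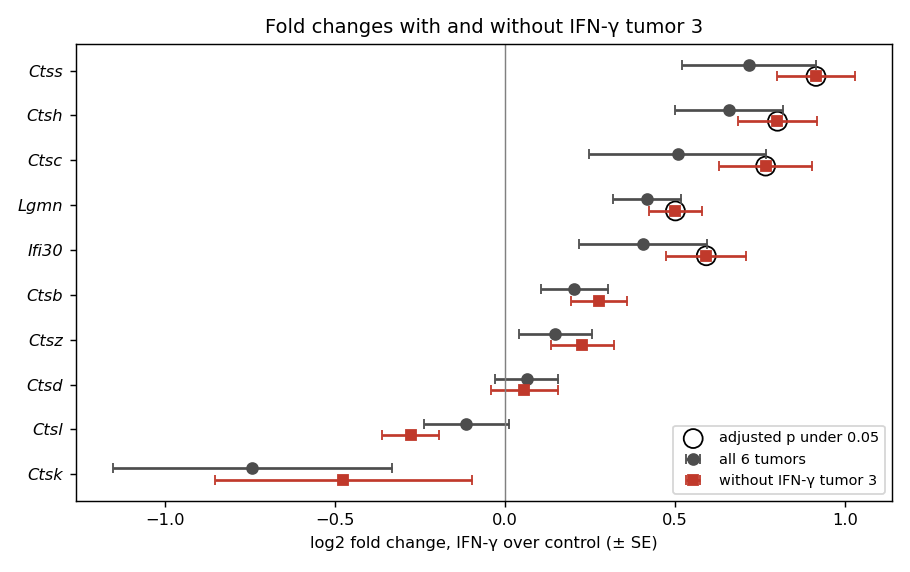
Log2 fold change of each gene, IFN-γ group over control group, with its SE as a bar, from edgeR with all 6 tumors (grey circles) and without IFN-γ tumor 3 (red squares). Open rings mark an adjusted p under 0.05, which 5 genes reached without IFN-γ tumor 3 and 0 reached with all 6 tumors.

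The opposite order of Ctsl and the members that were higher in IFN-γ tumors 1 and 2 can be read within each library, where scaling between libraries does not enter. The ratio of Ctss counts to Ctsl counts was 0.253, 0.355 and 0.372 in the controls, against 0.702, 0.777 and 0.332 in IFN-γ tumors 1, 2 and 3. The ratio of Ctsc to Ctsl counts was 0.220, 0.341 and 0.302 in the controls, against 0.533, 0.644 and 0.216 in the IFN-γ tumors. In both ratios IFN-γ tumors 1 and 2 were above every control, while IFN-γ tumor 3 was not. These ratios were chosen after the values were seen and carry no test.

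Ctsk encodes cathepsin K, the collagen-degrading protease best known from osteoclasts. Its CPM was 39.2, 13.5 and 18.7 in the controls, against 16.1, 18.2 and 8.22 in the IFN-γ tumors. Control tumor 1 was 2.09 times the next tumor, and IFN-γ tumor 3 was the lowest of the 6. The log2 fold change was -0.74 ± 0.41 (edgeR, adjusted p = 0.587), -0.48 ± 0.38 without IFN-γ tumor 3 (adjusted p = 0.611) and -0.18 without control tumor 1 (adjusted p = 0.938). Most of this value rested on control tumor 1. Its neighbour Ctss had its lowest level in the same control tumor 1, so that the ratio of Ctss to Ctsk counts ran from 11.2 in control tumor 1 to 72.0 in IFN-γ tumor 3, with 41.0 and 30.2 in the other controls and 58.5 and 56.3 in the other IFN-γ tumors.

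The gene whose profile over the 6 tumors was nearest to that of Ctsk was Mmp9, a gelatin- and collagen-degrading metalloproteinase that osteoclasts and other myeloid cells also make. Nearness was the root mean square difference of mean-centred log2 CPM over the 6 tumors, and it was 0.13 for this pair. It was compared over the 15099 tested genes with counts in every tumor, a number that includes the member itself. Mmp9 had a CPM of 49.2, 18.0 and 25.2 in the controls, against 17.4, 20.1 and 10.9 in the IFN-γ tumors. Control tumor 1 was again the highest and IFN-γ tumor 3 the lowest. Acp5, the tartrate-resistant acid phosphatase of osteoclasts and some macrophages, which also stands in the list of lysosomal hydrolases, had 35.4, 20.5 and 16.9 CPM in the controls, against 20.6, 21.6 and 11.3 CPM in the IFN-γ tumors. Atp6v0d2, a proton pump subunit abundant in the same cells, had 4.13, 1.75 and 1.66 CPM and then 0.871, 1.59 and 0.742 CPM. The 5 genes of the osteoclast list (Calcr, Ocstamp, Dcstamp, Oscar and Acp5) summed to 17.9 to 38.6 CPM in the controls, and to 11.7 to 22.3 CPM in the IFN-γ tumors, and only Acp5 passed the filter on low counts. Calcr, a defining marker, had at most 1 count in any tumor, and Ocstamp and Dcstamp had at most 28 and 14 counts. The part of such cells in the level of Ctsk was not tested.

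**Figure D3:**
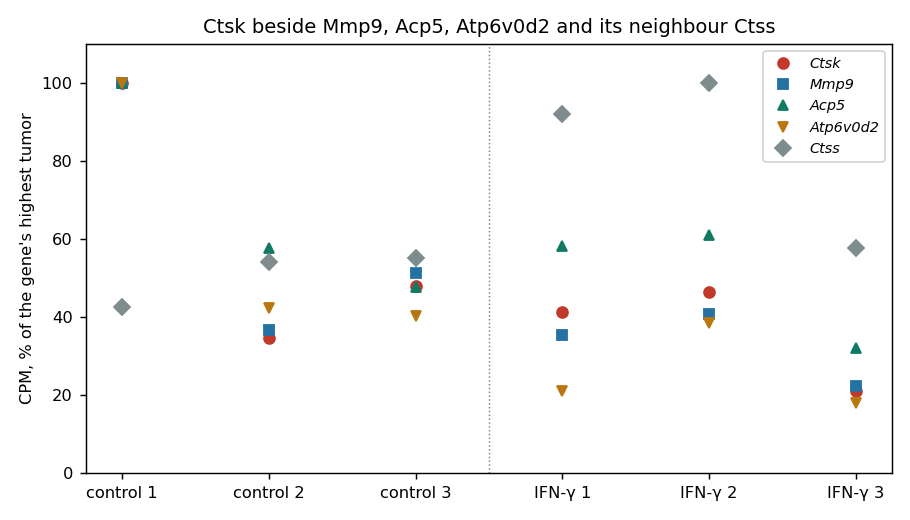
CPM of Ctsk, Mmp9, Acp5, Atp6v0d2 and Ctss in each tumor, as a percent of the highest tumor of that gene (linear axis from 0). Control tumor 1 is the highest for the first 4 genes and IFN-γ tumor 3 the lowest, whereas Ctss is lowest in control tumor 1 at 42.7% and highest in IFN-γ tumor 2.

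The nearest profiles of 8 other members were found by the same measure. Ctss was nearest to Anpep, the membrane aminopeptidase N (0.051), Ctsh to Cnr2, a cannabinoid receptor of leukocytes (0.047), and Ctsc to Sdc3, a cell-surface proteoglycan (0.062). Lgmn was nearest to Cln8 (0.044), Ifi30 to Slfn2 of the Schlafen family (0.029), and Ctsz to Ifi35, an interferon-induced gene (0.025). Ctsl was nearest to Tmem120a (0.028) and Ctsd to the general transcription factor gene Gtf2b (0.024). Among the members themselves, Ctss and Ctsh were the closest pair relative to the field, since Ctsh took place 12 among all genes in the list for Ctss and Ctss took place 10 in the list for Ctsh, at a difference of 0.082. Ctsb and Ctsz differed by 0.056. These are descriptions over 6 tumors of 2 groups, and genes with flat profiles have small differences from many others.

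Levels of the members were compared with each other per length, as TPM, the count per base of transcript scaled to the same sum in every tumor, over the union of a gene's exons. In the controls the order was Ctss (1147 ± 168 TPM), Ctsl (742 ± 62.3), Ctsb (651 ± 18.8), Ctsz (609 ± 40.0), Lgmn (600.2 ± 50.9), Ctsd (334 ± 25.2), Ifi30 (294 ± 19.9), Ctsc (237 ± 47.5), Ctsh (47.8 ± 6.7) and Ctsk (47.0 ± 26.5), each as mean ± SD of 3 tumors. By mean TPM over the control and IFN-γ tumors together, rather than over the controls alone, Ctss was at place 73 of the tested genes. In that ranking the members ran from among the most abundant transcripts of the tumor to Ctsk at place 4566. In the order of the controls, the ranges of neighbours overlapped between Ctsb and Ctsz, Ctsz and Lgmn, Ctsd and Ifi30, Ifi30 and Ctsc, and Ctsh and Ctsk.

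In the IFN-γ group the order was Ctss (1797 ± 540 TPM), Lgmn (760 ± 118), Ctsb (712 ± 102), Ctsl (646 ± 85.8), Ctsz (640 ± 102), Ifi30 (371 ± 111), Ctsd (331 ± 16.9), Ctsc (321 ± 125), Ctsh (71.8 ± 16.5) and Ctsk (26.9 ± 10.6). Lgmn thus stood in place 2 rather than 5 and Ctsl in place 4 rather than 2, although the ranges of Lgmn, Ctsb, Ctsl and Ctsz overlapped from each to the next. Ifi30 and Ctsd, and Ctsd and Ctsc, overlapped as well. The share of Ctss in the summed TPM of the 10 members was 21.2%, 25.9% and 25.8% in the controls, against 33.8%, 33.4% and 26.2% in the IFN-γ tumors, and that of Ctsl was 17.5%, 15.3% and 14.5% and then 10.1%, 8.99% and 16.6%.

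The place of Ctsl depends on the length used. Its exons join to 6489 bases because of long isoforms, while its shortest principal transcript has 1971 bases. With that length, an alternative chosen after seeing the data, Ctsl came first in the controls at 1547 ± 125 TPM and Ctss was the next at 728 ± 108 TPM. In the IFN-γ group the same lengths gave 1352 ± 175 TPM for Ctsl and 1147 ± 347 TPM for Ctss, with overlapping ranges. With the longest transcript of each gene, Ctss stayed first in both groups, and in the controls Ctsb came to place 2, Ctsl to 3 and Ctsc to 6. The counts do not show which isoforms were present.

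**Figure D4:**
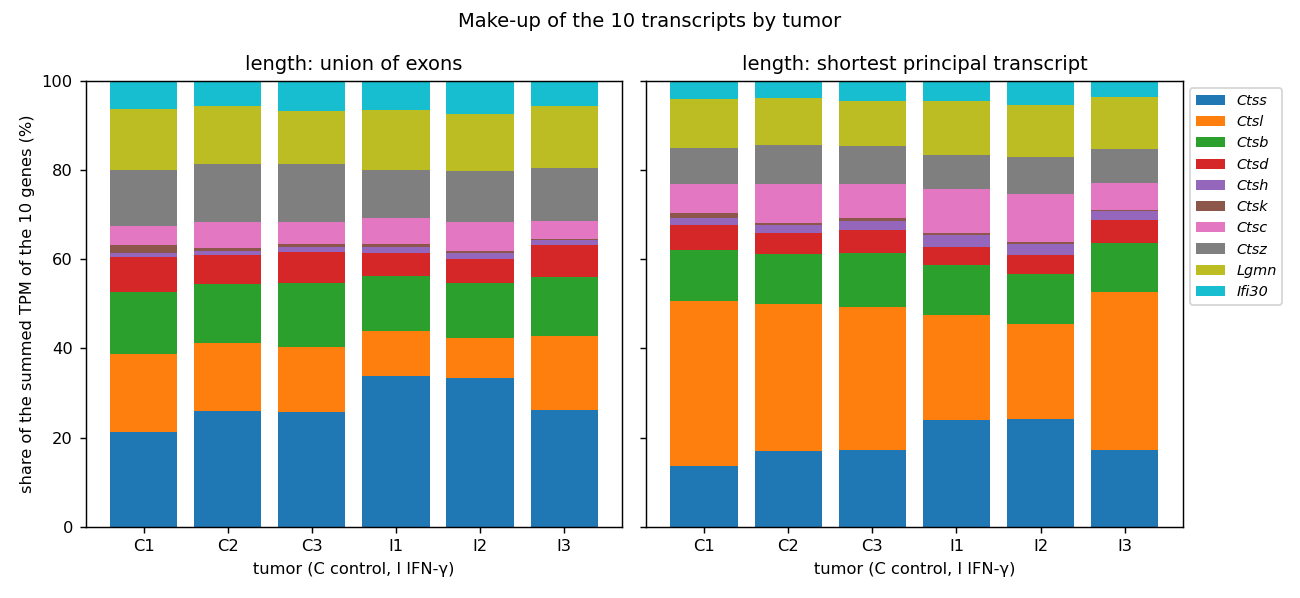
Share of each gene in the summed TPM of the 10 genes (vertical axis, 0 to 100%) in each tumor, with lengths from the union of exons (left) and from the shortest principal transcript (right). Under both lengths the Ctss share is larger and the Ctsl share smaller in IFN-γ tumors 1 and 2 than in the controls, and IFN-γ tumor 3 lies near the controls.

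Some counts can hold reads of other genes, and some can lack reads that fall in an overlapping gene model. The counting program, its strand setting and the handling of overlaps are not given in the sources used here. Of the stretches of 50 bases in the transcripts of Ctss, Ctsk and Ctsz, 0% occur in another gene. For Ctsb this share was 12.1%, all from Fdft1, which overlaps it on the opposite strand over 774 exon bases and had 1626 to 2160 counts per tumor. For Ctsd it was 32.4%, from the overlapping gene model Gm49369, which had 0 counts. For Ctsl it was 26.3%, with matches in 130 genes. Among these were overlapping gene models with 0 counts, Gm47123 (opposite strand, 1742 exon bases) and Gm49230 (same strand, 395 exon bases). How the share of Ctsl divides between the genes was not computed. Whether reads were dropped in the overlaps, which would lower the counts and TPM of Ctsd and Ctsl, was not tested. Shares for the remaining members were at most 3.67%, in Ifi30.

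The wider lysosome was described with lists of other genes in the same fits. Over all genes tested, edgeR called 0.0794% higher with all 6 tumors and 2.46% without IFN-γ tumor 3. DESeq2 with all 6 tumors called 0.936% higher. Of 13 other lysosomal proteases, 0 passed with all 6 tumors and 3 were higher without IFN-γ tumor 3, with medians of 0.24 and 0.35 on the log2 scale. They were Cpq, a plasma glutamate carboxypeptidase (log2 fold change 0.58 ± 0.09, edgeR adjusted p = 0.0162), Prcp, a prolylcarboxypeptidase (0.60 ± 0.10, adjusted p = 0.0218), and Ctsa, the protective protein of β-galactosidase (0.35 ± 0.07, adjusted p = 0.047). With all 6 tumors these were 0.57 ± 0.08 (adjusted p = 0.074), 0.42 ± 0.17 (adjusted p = 0.453) and 0.24 ± 0.11 (adjusted p = 0.491), in the same order. In this list DESeq2 with all 6 tumors called only Cpq higher (adjusted p = 5.22e-05). Cpq had 55.1, 55.9 and 63.3 CPM in the controls, against 83.9, 91.1 and 82.9 CPM in the IFN-γ tumors, so that here IFN-γ tumor 3 was with its group, unlike in Ctsc and Ifi30. In this list 2 genes had every IFN-γ tumor above every control, against 7.62% of all genes tested. Another 2, Ctsf and Tpp1, had every IFN-γ tumor below every control, against 7.5%. Ctsf had 7.69, 6.71 and 6.23 CPM in the controls, against 4.59, 5.25 and 5.75 CPM in the IFN-γ tumors.

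Of the 34 lysosomal hydrolases and membrane proteins, 0 passed with all 6 tumors and 10 were higher without IFN-γ tumor 3, with medians of 0.21 and 0.27. Over all genes tested, 0.0794% and 2.46% were called higher in these fits. The 10 genes called without IFN-γ tumor 3 include Cd68, which is also among the macrophage markers below. Of the 34, DESeq2 called 2 higher with all 6 tumors, against 0.936% of genes. Psap, the precursor of the saposins, had 1361, 1600 and 1662 CPM in the controls, against 2268, 2426 and 1598 CPM in the IFN-γ tumors. Without IFN-γ tumor 3, its log2 fold change was 0.60 ± 0.10 (edgeR, adjusted p = 0.0213), beside 0.45 ± 0.16 with all 6 (adjusted p = 0.389). Lipa, the lysosomal acid lipase, had 0.46 ± 0.07 (adjusted p = 0.0195), beside 0.30 ± 0.15 (adjusted p = 0.532). In the same fit 0 of 16 proton pump subunits passed, with a median of 0.043, and Atp6ap1 had a log2 fold change of 0.05 ± 0.08 (adjusted p = 0.839), beside 0.07 ± 0.07 with all 6 tumors (adjusted p = 0.817). Also 0 of 6 genes of mannose 6-phosphate sorting passed, with M6pr at 0.17 ± 0.08 (adjusted p = 0.354), and 0 of 4 MiT/TFE factors, with Tfe3 at -0.12 ± 0.07 (adjusted p = 0.506). With all 6 tumors M6pr had 0.16 ± 0.08 (adjusted p = 0.532) and Tfe3 -0.09 ± 0.07 (adjusted p = 0.702).

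Inhibitors of cathepsins were also listed. Of 12 named, 11 were in the table and 7 were tested, and 1 was higher without IFN-γ tumor 3, against 2.46% of all genes tested. The inhibitor called was Serpina3g, a serpin that inhibits cysteine cathepsins, with 11.4, 23.4 and 20.2 CPM in the controls, 41.9, 47.5 and 18.9 CPM in the IFN-γ tumors and a log2 fold change of 1.27 ± 0.24 (edgeR, adjusted p = 0.0298), beside 0.98 ± 0.36 with all 6 tumors (adjusted p = 0.398). Cst3, the gene of the secreted inhibitor cystatin C, had 602, 493 and 614 CPM in the controls, against 731, 777 and 696 CPM in the IFN-γ tumors. Its groups did not overlap, with the IFN-γ group higher, as in 7.62% of all genes tested. Its adjusted p (edgeR) was 0.299 with all 6 tumors and 0.0881 without IFN-γ tumor 3. With DESeq2 and all 6 tumors the adjusted p of Cst3 was 0.0498. Stfa1 had 0 counts in every tumor.

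Of the 10 genes of the MHC class II pathway, the recipients of peptides cut by these proteases, edgeR called 8 higher without IFN-γ tumor 3 and 0 with all 6 tumors. Over all genes tested, 2.46% and 0.0794% were called higher in these fits. With all 6 tumors DESeq2 called 1 gene of this list higher, H2-DMb1 (adjusted p = 0.0158), against 0.936% of genes. Cd74, which encodes the invariant chain, had 405, 854 and 735 CPM in the controls, against 1517, 1760 and 887 CPM in the IFN-γ tumors, with a log2 fold change of 1.29 ± 0.25 without IFN-γ tumor 3 (edgeR, adjusted p = 0.034) and 1.06 ± 0.31 with all 6 (adjusted p = 0.321). Cd74 and Ctss shared the order in which control tumor 1 was the lowest and IFN-γ tumor 2 the highest of the 6. The median log2 ratio of this list to the control mean was 1.17, 1.36 and 0.38 in IFN-γ tumors 1, 2 and 3, beside 0.32, 0.45 and 0.04 for the 10 members.

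**Figure D5:**
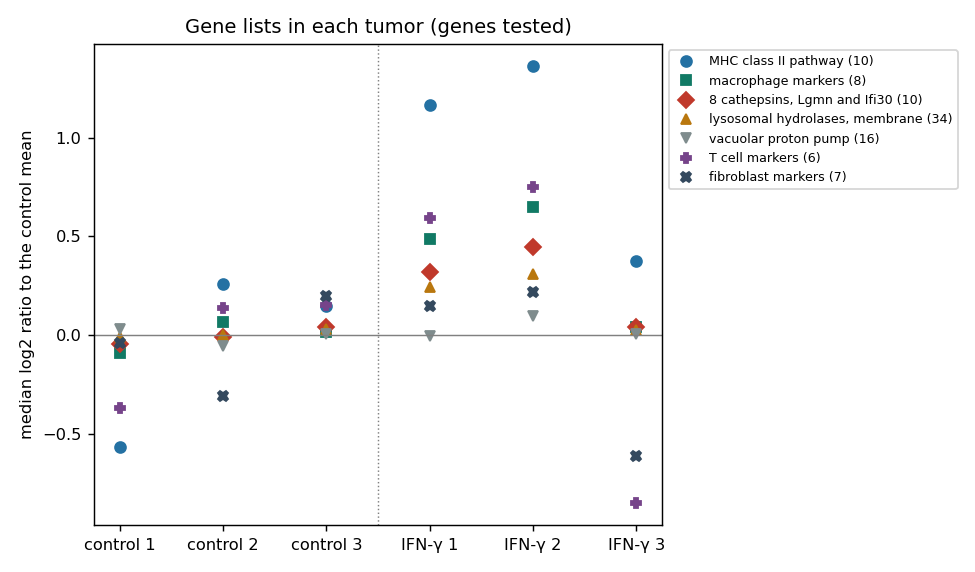
Median log2 ratio to the control mean (CPM plus 0.5) over the tested genes of each list, for each tumor, with the number of genes in the key. The class II list, the macrophage markers and the 10 members are highest in IFN-γ tumors 1 and 2 and nearer to 0 in IFN-γ tumor 3, while the proton pump stays within 0.1 of 0 in every tumor.

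Markers of host cells were read in the same fits. With all 6 tumors, edgeR called 0 genes in any of the marker lists. There 5 macrophage and 5 adipocyte markers had an unadjusted p under 0.05, against 10.2% of all genes tested. DESeq2 called 2 and 4 of them higher, against 0.936% of genes. The calls that follow are from the edgeR fit without IFN-γ tumor 3, which called 2.46% of all genes tested higher and 0.723% lower. In that fit 5 of the 8 macrophage markers were called higher (C1qa, C1qb, C1qc, Adgre1 and Cd68), C1qa with a log2 fold change of 0.68 ± 0.10 (edgeR, adjusted p = 0.0162), beside 0.55 ± 0.14 with all 6 tumors (adjusted p = 0.264). Mrc1, the mannose receptor, went the other way, with 432.5, 391 and 407 CPM in the controls, against 368, 369 and 322 CPM in the IFN-γ tumors. Its log2 fold change was -0.22 ± 0.08 with all 6 tumors (adjusted p = 0.437) and -0.16 ± 0.08 without IFN-γ tumor 3 (adjusted p = 0.358). The 6 T cell markers summed to 41.1 to 59.9 CPM in the controls, against 83.6, 95.4 and 32.8 CPM in the IFN-γ tumors, and 0 were called, whereas the 6 neutrophil markers summed to 29.0 to 37.3 and 36.5 to 46.9 CPM, and Csf3r was called. The 7 dendritic cell markers summed to 35.8 to 53.6 CPM and then 66.0, 72.1 and 39.9 CPM, with 0 called, and the 5 B cell markers to 8.00 to 12.5 and 6.56 to 8.00 CPM, with 0 called. Of the 4 B cell markers tested, 1 had a positive log2 fold change, and the median was -1.35 in both edgeR fits. With all 6 tumors, 2 of these 4 had an unadjusted p under 0.05 (edgeR). The 7 fibroblast markers summed to 3428 to 5378 and 3421 to 5375 CPM and the 4 endothelial markers to 197 to 250.1 and 156 to 209 CPM, with 0 called in either list. Of 5 adipocyte markers, 4 were called higher, at sums of 5.98 to 11.4 and 25.5 to 54.1 CPM, and the 4 muscle markers summed to 94.4 to 649.8 and 107 to 346 CPM, with 0 called. The part of these cells in the levels of Ctss, Ctsh, Ctsc, Lgmn and Ifi30 was not tested.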

How the data were processed

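RNA sequencing of 6 subcutaneous tumors (3 control, 3 IFN-γ) was used. The values deposited by the authors are raw read counts for each gene, as whole numbers. The submitters' processing notes name HISAT2 and mm10, and the counting program, annotation release and strand setting are not given in the sources used here. All 6 columns were read, and 0 were left unused. Of the gene identifiers, 99.5% were found in GENCODE M21, which supplied coordinates and lengths. Groups were taken from the treatment labels. No libraries were duplicates (smallest chi-square per gene 6.17).

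Counts were filtered with filterByExpr, scaled with TMM and tested with edgeR 4.0.16 in R 4.3.3 (quasi-likelihood test, Benjamini-Hochberg adjustment over all genes tested, threshold 0.05). The SE was the size of the log2 fold change divided by the square root of F. DESeq2 1.42.0, limma 3.58.1 (voom), other scalings and filters, a fold threshold, a replicate block and fits that left out 1 tumor each were alternatives. The scripts were tested on simulated data. TPM were computed from counts and exon lengths, and promoter sequences are from RefSeq (GRCm38.p6). Depth was 15759300 to 17559680 counts per tumor, and floors and counts cover counting error only.

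The named genes were all members, the gene with the highest mean CPM (not scaled by length) in each list, up to 3 genes per pathway list with the smallest p among those called, and the gene nearest to each member. Atp6v0d2, Ctsf, Tpp1, the called genes of the marker lists and the ratios between members were added after their values were seen. The members and lists were chosen with earlier results of these data known. Protein sequences were not used here, and 2 genes that this rule names are not reported here.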

Additional observations from a re-analysis of the deposited data

How the results depend on the processing

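Of 160 refits of the members under alternatives, 136 kept direction and side of the threshold, 23 kept the direction and passed it, and 1 reversed, which was Ctsd without control tumor 2, at -0.011 (range 0.13 to -0.011 when single tumors were left out). The number of members called higher was 0 in the main test and 3 with DESeq2, 3 without a filter on low counts, and, without IFN-γ tumor 3, 5 with edgeR, 6 with DESeq2 and 5 with limma-voom, the latter 2 tools added after seeing the data. The 3 members called without a filter were Ctss, Ctsh and Lgmn, as with DESeq2. The number called lower was 0 in the main test and 1 (Ctsl) with DESeq2 without IFN-γ tumor 3. When single tumors were left out in turn, members called higher ranged from 0 to 5 and lower from 0 to 0, and the 90 partner genes tested from 0 to 22 higher and from 0 to 0 lower. The 5 and the 22 came from the fit without IFN-γ tumor 3, and every other fit of this kind called 0 of either. Partner genes called higher numbered 0 in the main test, 5 with DESeq2, 9 without a filter and, without IFN-γ tumor 3, 22 with edgeR, 29 with DESeq2 and 23 with limma-voom. Why these counts differ between tools was not tested. With a replicate block 0 members were called, and Ctss had a log2 fold change of 0.69 (adjusted p = 0.595). The labels number the tumors alike in both groups, but deviations from the group means of same-numbered tumors correlated at -0.24, -0.0047 and -0.22. No sign of pairing by number was thus seen, and 3 tumors per group are too few to settle it. Over 16 alternatives the adjusted p of Ctss ran from 4.59e-11 to 0.757, of Ctsh from 4.33e-07 to 0.72, of Lgmn from 1.04e-07 to 0.72, of Ctsc from 5.95e-06 to 0.929, of Ifi30 from 0.000446 to 0.907 and of Ctsl from 0.0246 to 0.984. Every member had at least 133 counts in every tumor.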
